A study of Mus musculus with 6 samples.

Results

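MHC class II genes were examined in HSCs sorted from the BM of mice. The genes were taken by symbol. They were H2-Aa and H2-Ab1, the chains of the I-A molecule, H2-Eb1, the beta chain of I-E, Cd74, the invariant chain, H2-DMa and H2-DMb1, the chains of the peptide exchange factor H2-DM, and Ciita, the class II transactivator. All 7 were found among the 21878 rows of each file. The labels describe 6 RNA-seq libraries of WT mice on a matched background, 3 of control mice and 3 of mice treated with IGF-1. By the study's methods the treated mice received a single subcutaneous dose of recombinant mouse IGF1, the controls received vehicle, and HSCs were sorted at day 1. One label conflicts with this, since the extraction text speaks of control or IR mice. The treatment label was followed. The labels do not say whether the libraries of a group came from separate mice, so p-values measure the spread between these libraries, which may be technical. The question was whether the class II genes of HSCs differ between IGF1- and vehicle-treated mice.

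Class II molecules present peptides from the endosomal pathway to CD4+ T cells. The alpha and beta chains pair in the ER with the invariant chain, which guards the groove and guides the complex to late endosomes, where cathepsins trim it and H2-DM exchanges the remaining fragment for peptides. H2-O inhibits H2-DM. Dendritic cells, B cells and macrophages carry the most class II, and hematopoietic stem and progenitor cells are also known to express it. Transcription rests on a shared promoter module, an X box bound by RFX, a CRE-like X2 box bound by CREB or ATF, and a Y box bound by NF-Y, onto which CIITA is recruited.

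Promoter sequences are shown for genes whose windows hold at least 2 matches to parts of this module outside annotated transcripts. They are RefSeq sequences of GRCm38.p6, written 5′ to 3′ on the gene's strand. Capitals mark matches to the Y box core TGATTGG, to an X box pattern (AAC, any 2 bases, ATGATG) and to the palindromic CRE TGACGTCA. The letters of the patterns were chosen after the sequences were seen. The window of H2-Aa is chr17:34287824-34287973 on the minus strand, that of H2-Eb1 is chr17:34305717-34305866 on the plus strand, and that of H2-Ob, the beta chain of H2-O, is chr17:34238755-34238902 on the plus strand.
H2-Aa: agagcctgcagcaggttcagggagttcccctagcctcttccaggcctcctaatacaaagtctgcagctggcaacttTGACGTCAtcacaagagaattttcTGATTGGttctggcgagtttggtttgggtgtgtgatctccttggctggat
H2-Eb1: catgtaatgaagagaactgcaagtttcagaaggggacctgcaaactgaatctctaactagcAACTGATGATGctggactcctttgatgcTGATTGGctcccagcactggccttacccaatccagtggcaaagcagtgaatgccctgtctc
H2-Ob: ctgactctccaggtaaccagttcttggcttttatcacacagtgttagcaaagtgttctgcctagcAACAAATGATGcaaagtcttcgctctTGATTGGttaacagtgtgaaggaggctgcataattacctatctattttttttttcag

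Windows of 300 bases, 250 before and 50 after each RefSeq start, were searched on both strands. The Y box core was in 7.82% of all 32851 windows, the CRE in 1.79% and the X box pattern in 0.137%. In H2-Aa the Y box core began at position -50 and the CRE at -74, and the X box pattern was not matched. H2-Eb1 held the X box pattern at -89 and the Y box core at -61, with 17 bases between them. H2-DMb1 held AACTGATGATG at -92 and the Y box core at -63, and its paralog H2-DMb2 held AACCGATGATG at -121 and the core at -92, each with 18 bases between. The gap was 15 bases in H2-Ob. X and Y patterns together occurred in 9 windows of all those searched, 4 of which belonged to H2-Eb1, H2-DMb1, H2-DMb2 and H2-Ob, and the other 5 to Nubp2, Spsb3 and Gm38969. H2-Oa, the alpha chain of H2-O, and H2-Eb2 held the Y box core alone, and neither of the windows of H2-DMa held a match. H2-Ab1, Cd74 and Ciita were not in the promoter table. Of the 4 class II genes with both patterns, H2-DMb1 was lower in IGF1 libraries, and H2-Eb1, H2-DMb2 and H2-Ob did not pass the test.

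Values were taken as FPKM, fragments per kilobase of gene and per fixed number of mapped fragments. Comparisons of level between genes rest on the lengths behind these values. The implied length was 28.4% of the annotated exon bases for H2-Aa and 199% for H2-DMa. Whole reads were recovered from the FPKM steps for 14838 of the 15640 rows above 0, and gave about 15879352, 11429050 and 15973581 reads in control replicates 1 to 3 and 12262616, 11206746 and 12756177 in IGF1 replicates 1 to 3. Control replicate 2 stood apart from its group. Chi-squared per gene was 1.52 between control replicates 1 and 3 and 1.69 to 1.89 between IGF1 libraries, whereas it was 228.77 to 230.57 between control replicate 2 and the other controls and 24.61 to 27.96 between that library and the IGF1 libraries. Fold changes of the class II genes are therefore given with all 6 libraries and also without control replicate 2. Over the 8527 genes with a log2 difference of at least 0.25 without that library, its level lay a median of 80.7% of the way from the mean of the other controls to the IGF1 mean.

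The labels call the cells HSCs, sorted as CD34- Flk2- Lineage- Sca1+ c-Kit+. Of the defining markers, Kit was at 104.8, 31.4 and 104.5 FPKM in control replicates 1 to 3 and at 24.2 to 24.6 in IGF1 libraries, and Ly6a, which encodes Sca1, was at 218.8 FPKM or more in every library. Of 12 listed HSC markers 10 were tested, and 1, Fgd5, was lower by limma adjusted p (0.0286), where 14.1% of all genes tested were. The mRNAs of the sort's negative markers were present too, Cd34 at 230.2 to 640.0 FPKM and Flt3, which encodes Flk2, at 116.6 to 188.0 FPKM.

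H2-Aa, Cd74 and H2-DMb1 were lower in IGF1 than in control libraries at a limma adjusted p under 0.05, and H2-DMa lay higher in every IGF1 library without passing the test. Of the 7 genes, 6 passed the filter of 1 FPKM in 3 libraries, and Ciita did not. With a fold change over 2 required as well, 0 of these 6 were called in either direction by limma, against 1.98% called higher and 4.63% called lower of the 10449 genes tested. At an unadjusted p under 0.05, 4 were lower and 1 was higher, where 34.4% of all genes tested were lower and 19.0% higher. By adjusted p alone 3 of 6 were lower, where the background was 14.1%, and 0 were higher, where it was 6.26%. Groups did not overlap for 4 genes that were lower in IGF1 and 1 that was higher, against 37.4% and 21.9% of all genes tested. Without control replicate 2 the fold and p rule called H2-DMa higher (background 12.3%) and none of the 6 lower (background 20.6%). By adjusted p alone it then gave 5 lower and 1 higher, in a fit where 53.6% of genes were lower and 34.9% higher. The median log2 fold change of the 6 was -0.37, or -0.38 without that library, where the medians of all genes tested were -0.18 and -0.24.

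**Figure D1:**
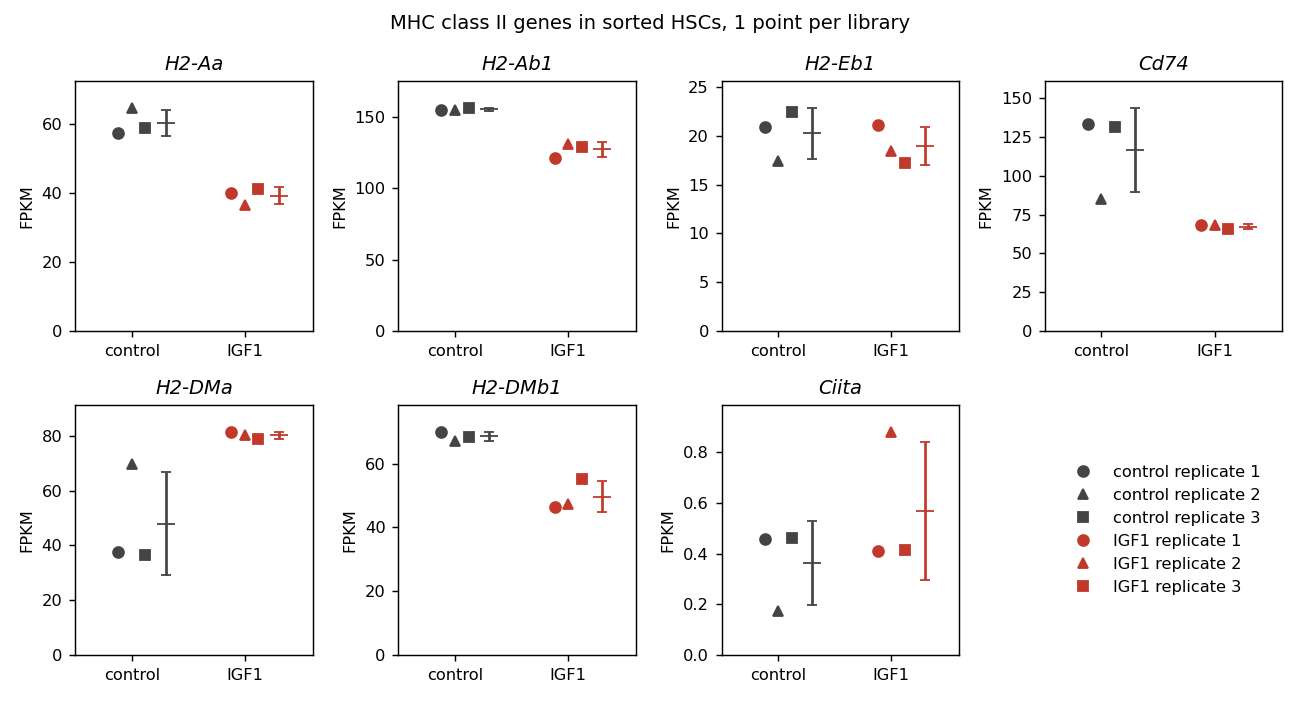
FPKM of the 7 class II genes on linear axes from 0, with 1 point per library (circle, triangle and square for replicates 1, 2 and 3, control in black and IGF1 in red) and the mean ± SD of each group (n = 3) to the right of its points. H2-Aa, H2-Ab1, Cd74 and H2-DMb1 were lower in the 3 IGF1 libraries and H2-DMa was higher, while H2-Eb1 and Ciita overlapped. After scaling to the 75th percentile H2-Ab1 and H2-DMb1 overlapped as well.

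The scale of the libraries bears on these counts. When libraries were scaled to the same 75th percentile, the log2 fold change had a median over all genes of 0.06 in place of -0.18, and under quantile normalization one of -0.02. H2-Aa, Cd74 and H2-DMb1 kept their direction under both, and none of these 3 kept an adjusted p under 0.05 in limma. Nor did any of them when 1 library other than control replicate 2 was left out (limma adjusted p from 0.141 to 0.165). Relative to the median of all genes, the log2 fold change was -0.58 for Cd74 as deposited, -0.72 after quantile normalization and -0.54 after 75th percentile scaling. It was -0.43, -0.37 and -0.39 for H2-Aa and -0.28, -0.27 and -0.25 for H2-DMb1 in the same order. H2-DMa lay between 0.98 and 1.01 above the median.

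H2-Ab1, the I-A beta chain (chr17:34257689-34269419, plus strand), had the highest FPKM of the 7 genes in both groups as deposited. Its level was 154.8, 154.6 and 156.3 FPKM in control replicates 1 to 3 and 121.5, 131.1 and 128.9 FPKM in IGF1 replicates 1 to 3. The groups did not overlap, and control replicate 2 lay with the other controls. The mean was 155.3 ± 0.926 FPKM in controls and 127.2 ± 5.05 FPKM in IGF1 (SD, n = 3), a log2 fold change of -0.29 (SE 0.10) that missed the threshold (limma adjusted p = 0.0659). Without control replicate 2 it was -0.29 again, with adjusted p = 3.5e-05 by limma. The gene lay -0.11 from the median of all genes, and after 75th percentile scaling its levels were 134.0, 155.0 and 135.0 against 134.0, 143.0 and 142.0, which overlap.

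H2-Aa, the I-A alpha chain (chr17:34282744-34287823, minus strand), was at 57.4, 64.7 and 58.9 FPKM in the controls against 40.0, 36.4 and 41.3 FPKM in the IGF1 libraries. Every IGF1 library was below every control library, and control replicate 2 was the highest of the 6. These levels rested on 441 to 1014 reads per library. The log2 fold change was -0.61 (SE 0.10, limma adjusted p = 0.0315) and -0.56 without control replicate 2. The groups stayed apart after 75th percentile scaling, at 49.6, 65.0 and 50.9 against 44.3, 39.8 and 45.5. Once trends on gene length and GC content were removed, the log2 fold change of H2-Aa was -0.06 (limma adjusted p = 0.829), while that of H2-Ab1 was -0.89 (limma adjusted p = 0.0447).

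H2-Eb1, the I-E beta chain (chr17:34305867-34316674, plus strand), did not separate the groups. It was at 20.9, 17.4 and 22.5 FPKM in control replicates 1 to 3, and the IGF1 libraries were at 21.1, 18.5 and 17.2 FPKM. Its log2 fold change was -0.09 (SE 0.14, limma adjusted p = 0.598), was -0.19 without control replicate 2 (limma adjusted p = 0.038), and turned to 0.17 and 0.23 under 75th percentile scaling and quantile normalization. Its partner, the I-E alpha chain, appears in the files as the pseudogene H2-Ea-ps and was listed at 0 in all 6 libraries. H2-Eb2, a related beta chain gene, was at most 0.258 FPKM, which rested on 13 reads.

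Cd74, on chromosome 18, had the lowest fold change of the 6 tested class II genes on the deposited scale. Its level was 133.1, 85.3 and 131.2 FPKM in control replicates 1 to 3 and 68.1, 68.3 and 65.5 FPKM in IGF1 replicates 1 to 3. Control replicate 2 lay between the groups, 64.9% of the way from the other controls to IGF1, and all IGF1 libraries were below it. The mean was 116.5 ± 27.1 FPKM in controls and 67.3 ± 1.56 FPKM in IGF1 (SD, n = 3). The log2 fold change was -0.75 (SE 0.19, limma adjusted p = 0.0466), and -0.96 without that library (SE 0.03, limma adjusted p = 1.9e-09). With no filter on low values the adjusted p of Cd74 was 0.0555 in limma.

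**Figure D2:**
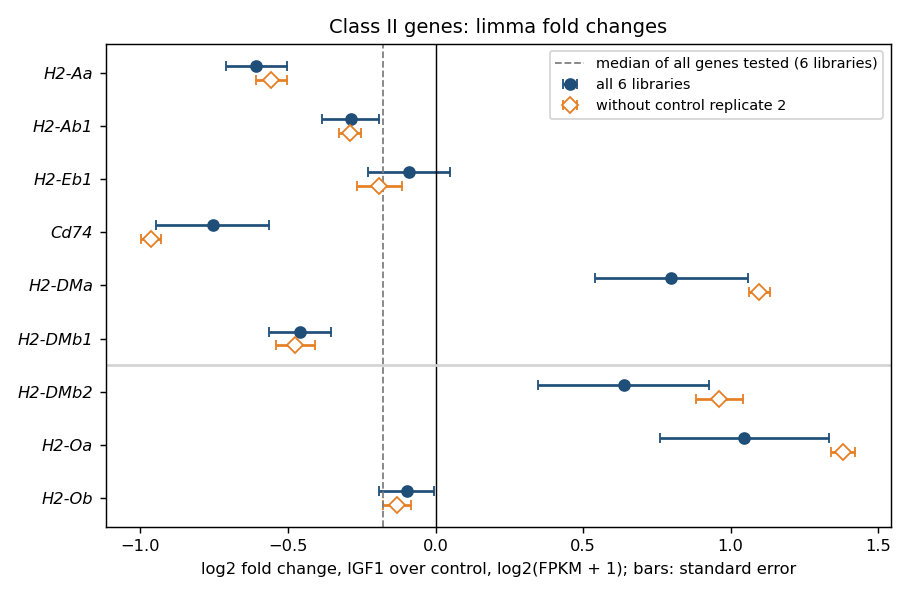
Limma log2 fold changes (IGF1 over control, on log2(FPKM + 1)) with standard errors for the 6 tested class II genes and, below the grey line, for H2-DMb2, H2-Oa and H2-Ob. Filled circles use all 6 libraries, open diamonds leave out control replicate 2, and the dashed line is the median of all genes tested, -0.18. H2-DMa, H2-DMb2 and H2-Oa lie to the right of 0 and the other genes to the left, of which H2-Eb1 and H2-Ob changed sign under 75th percentile scaling and quantile normalization.

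The chains of H2-DM lay on opposite sides of 0. H2-DMb1 (chr17:34153072-34160230, plus strand) was at 70.0, 67.0 and 68.4 FPKM in the controls against 46.4, 47.5 and 55.2 FPKM in the IGF1 libraries. It was lower in IGF1 with a log2 fold change of -0.46 (SE 0.11, limma adjusted p = 0.0429), and of -0.48 without control replicate 2. H2-DMa (chr17:34119541-34139101, plus strand) was at 37.4, 69.6 and 36.6 FPKM in the controls against 81.6, 80.5 and 79.0 FPKM in the IGF1 libraries. All IGF1 libraries were above all controls, but control replicate 2 lay 81.4% of the way to the IGF1 mean. The log2 fold change of H2-DMa was 0.80 (SE 0.26, limma adjusted p = 0.0616), and 1.10 without that library (SE 0.03, limma adjusted p = 1.1e-09).

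Some features of the gene models bear on these levels. In GENCODE M21, 360 exon bases, 10.4% of its exons, overlap Brd2 on the opposite strand, and whether reads were counted by strand is not given in the sources used here. Brd2, a bromodomain gene, was at 21.6, 24.5 and 22.1 FPKM in the controls against 31.4, 29.8 and 30.1 FPKM in IGF1 (log2 fold change 0.41, limma adjusted p = 0.0443). The FPKM steps of H2-DMa implied a length of about 6867 bases, 199% of its 3448 annotated exon bases, while the implied length was 28.4% of the exon bases for H2-Aa and 46.9% for H2-Ab1. H2-DMb1 shares 27.2% of the 50-base words of its longest transcript with H2-DMb2, and reads in those stretches could be assigned to either gene. H2-DMb2 was at 5.48, 12.1 and 5.92 FPKM in the controls against 11.0, 11.9 and 13.3 FPKM in IGF1 (log2 fold change 0.64, limma adjusted p = 0.117).

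H2-Oa and H2-Ob are the chains of the H2-DM inhibitor. H2-Oa was at 18.6, 37.3 and 17.6 FPKM in the controls against 48.4, 48.5 and 49.2 FPKM in IGF1. It was higher in all IGF1 libraries, with control replicate 2 between, at a log2 fold change of 1.05 (SE 0.29, limma adjusted p = 0.0507) and of 1.38 without that library. With length and GC trends removed it was 0.56. Of the exon bases of H2-Oa, 22.8% overlap BC051537 on the opposite strand. H2-Ob overlapped between groups, at 32.3, 30.2 and 32.4 FPKM in the controls against 30.0, 30.5 and 28.0 FPKM in IGF1 (limma adjusted p = 0.401), and its fold change turned from -0.10 to 0.17 under either other scaling and to 0.42 with length and GC trends removed.

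Ratios within a library are free of any factor that scales a whole library, but not of trends on gene length and GC content. The ratio of H2-DMa to H2-DMb1 was 0.534, 1.04 and 0.535 in control replicates 1 to 3 and 1.76, 1.70 and 1.43 in IGF1. The ratio of H2-Oa to H2-Ob was 0.574, 1.24 and 0.544 in the controls and 1.61, 1.59 and 1.76 in IGF1. Both were higher in every IGF1 library than in any control. With length and GC trends removed, the difference of the log2 fold changes of H2-DMa and H2-DMb1 stayed above its deposited 1.26, and that of H2-Oa and H2-Ob was 0.14 in place of 1.14. H2-Aa over H2-Ab1 was lower in each IGF1 library, at 0.329, 0.278 and 0.320 against 0.371, 0.418 and 0.376, and here control replicate 2 lay farthest from IGF1. This direction reversed with length and GC trends removed, where the difference of the log2 fold changes was 0.83 in place of -0.32, and under quantile normalization the difference was -0.02. For these 3 ratios the 2-sided exact permutation test gave p = 0.1, the smallest value that 3 libraries against 3 allow, and adjusted p = 0.2 over 6 ratios. Cd74 over H2-Ab1 overlapped by control replicate 2, at 0.860, 0.552 and 0.839 against 0.561, 0.521 and 0.508 (exact permutation p = 0.2). H2-Eb1 over H2-Ab1 (exact permutation p = 0.5) and Cd74 over H2-Aa (exact permutation p = 0.7) overlapped as well.

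**Figure D3:**
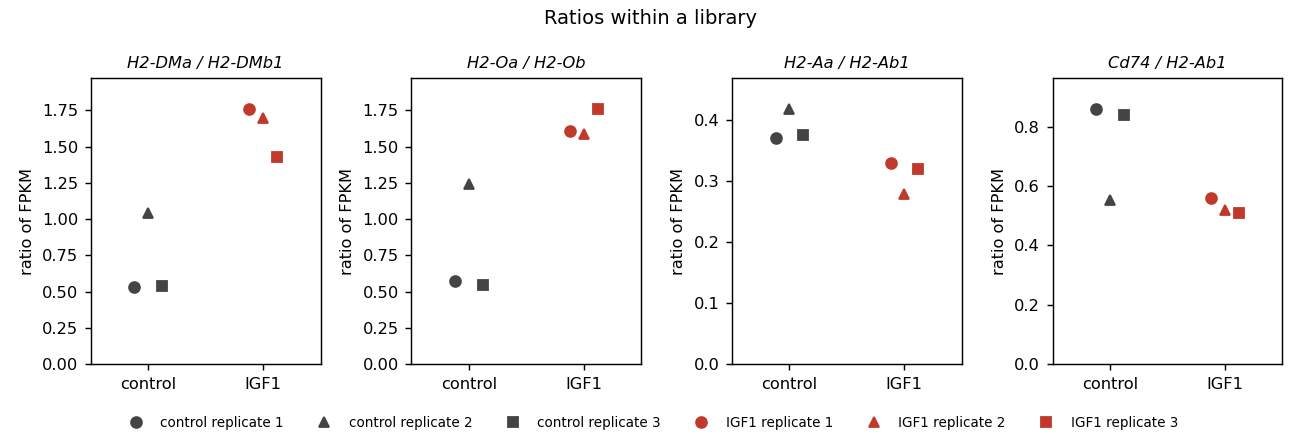
Ratios of FPKM within each library on linear axes from 0, with 1 point per library and the same symbols for replicates. H2-DMa over H2-DMb1 and H2-Oa over H2-Ob were higher, and H2-Aa over H2-Ab1 lower, in all 3 IGF1 libraries than in any control, with control replicate 2 between the groups in the first pair of ratios (1.04 and 1.24) and above both in H2-Aa over H2-Ab1 (0.418). With length and GC trends removed, H2-Aa over H2-Ab1 reversed and the log2 difference of H2-Oa and H2-Ob fell to 0.14.

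Ciita (chr16:10480059-10528418, plus strand) was the least abundant of the 7 genes, at 0.457, 0.173 and 0.463 FPKM in the controls against 0.408, 0.882 and 0.413 FPKM in IGF1. These values rested on 55, 15 and 56 reads and on 38, 75 and 40 reads. The 95% Poisson intervals, which cover counting error only, ran from 0.0968 to 0.285 FPKM in control replicate 2 and from 0.694 to 1.11 FPKM in IGF1 replicate 2. Both of these libraries lay apart from their groups, in opposite directions, and the other 4 lay within 0.408 to 0.463 FPKM. The groups overlapped, and the fit without a filter gave a log2 fold change of 0.19 (SE 0.15, limma adjusted p = 0.34).

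Taken by mean level, control libraries ordered the genes as H2-Ab1, Cd74, H2-DMb1, H2-Aa, H2-DMa, H2-Eb1 and Ciita, and IGF1 libraries as H2-Ab1, H2-DMa, Cd74, H2-DMb1, H2-Aa, H2-Eb1 and Ciita. The place of H2-DMa, after H2-Aa in the controls and after H2-Ab1 in IGF1, rests on the lengths behind FPKM. With levels set on annotated exon lengths, an alternative chosen after the data were seen, H2-DMa came next to Cd74 in the controls, at 95.4 against 99.2 FPKM, and led in IGF1 at 160.0 FPKM, with H2-Ab1 next at 59.7. As deposited, levels of neighbours in this order did not overlap between libraries of a group, except those of H2-Aa and H2-DMa in the controls, where H2-DMa was at 69.6 FPKM in control replicate 2, above H2-Aa at 64.7. The H2-Aa, H2-Ab1 and H2-Eb1 chains together came to 233.1, 236.7 and 237.6 FPKM in the controls against 182.5, 186.0 and 187.5 FPKM in IGF1, and did not overlap (exact permutation p = 0.1, the smallest possible). After 75th percentile scaling the sums overlapped, at 201.6, 237.9 and 205.4 against 202.0, 203.0 and 206.5. On the deposited scale control replicate 2 lay between the other controls in this sum.

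For most genes control replicate 2 lay near the IGF1 libraries, and for some class II genes it did not. On the deposited scale it lay 64.9% of the way to IGF1 for Cd74 and 81.4% for H2-DMa, near the median over genes, but 2.9% for H2-Ab1, 9.7% for H2-DMb1 and -27.3% for H2-Aa, the last on the far side of the other controls. Of the 8527 genes with a log2 difference of at least 0.25, 8.41% lay no more than 25% of the way, and both limits were set after the values were seen. After 75th percentile scaling H2-Aa and H2-DMb1 in that library were still not displaced towards IGF1, at 65.0 and 67.3 against 49.6 to 50.9 and 59.2 to 60.6 in the other controls. For H2-Ab1 and H2-DMb1 the groups then overlapped.

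**Figure D4:**
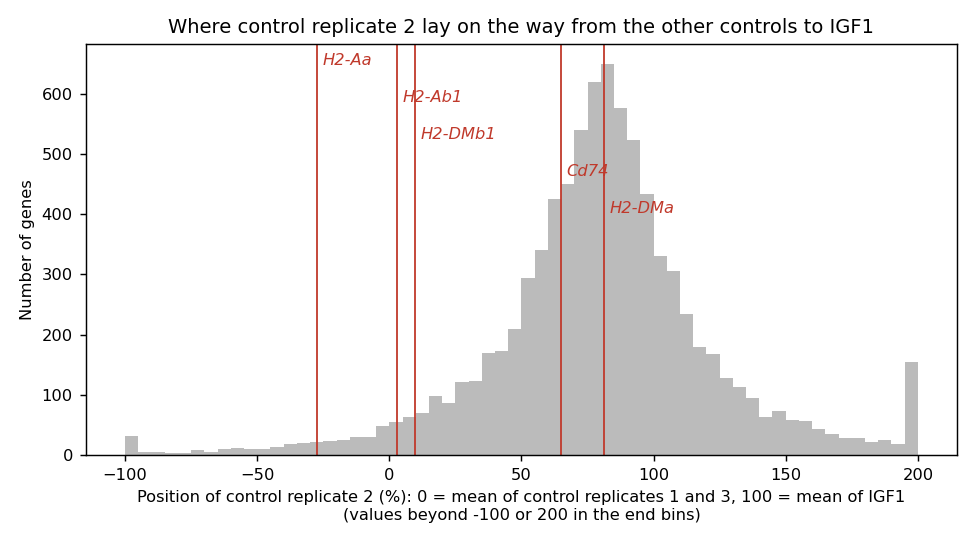
Position of control replicate 2 between the mean of control replicates 1 and 3 (0%) and the IGF1 mean (100%), as a histogram over the 8527 genes with a log2 difference of at least 0.25 on the deposited FPKM scale, values beyond the axis limits being drawn in the end bins. The distribution peaks near its median of 80.7%. Red lines mark H2-Aa, H2-Ab1 and H2-DMb1 at -27.3%, 2.9% and 9.7%, and Cd74 and H2-DMa at 64.9% and 81.4%.

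Genes with the most similar profile over the 6 libraries were named by the root mean square difference of log2(FPKM + 1), each gene centred on its own mean. The nearest to Cd74 was Atp5a1, a subunit of ATP synthase, with a difference of 0.028. The nearest to H2-DMa was Ndufc2, a complex I subunit, with 0.0114, and the nearest to H2-Ab1 was Imp4 with 0.017. For H2-Aa it was Mtus1 (0.0374), for H2-DMb1 Coq3 (0.044) and for H2-Eb1 Tmem94 (0.0413). Rbm17, Clk1 and the chemokine receptor Ccr2 lay nearest to the mean of the class II genes, with 0.00908, 0.0148 and 0.0195.

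Among 12 factors that act on class II promoters, 1 was higher and 3 were lower by limma adjusted p, against 6.26% and 14.1% of all genes tested. Of these factors 0 passed the fold rule. Their median log2 fold change was 0.01, where that of all genes tested was -0.18. Rfxank, a subunit of RFX, was higher at 4.89, 5.97 and 5.29 FPKM in IGF1 against 2.44 to 3.58 in the controls (log2 fold change 0.68, limma adjusted p = 0.0412). Atf1, which binds CRE-like sites, was lower at 10.8, 11.4 and 11.7 FPKM against 24.1, 18.8 and 23.9 (log2 fold change -0.91, limma adjusted p = 0.0287). Nfyb and Nfyc, subunits of NF-Y, were lower with log2 fold changes of -0.79 and -0.59 (limma adjusted p = 0.0409 and 0.0489). Nfyc missed the threshold under both other scalings, and with length and GC trends removed Nfyb was at -0.11 (limma adjusted p = 0.3). Rfxap, another RFX subunit, was at 17.1 to 20.2 FPKM in the controls and 19.2 to 21.7 in IGF1, and did not pass the test.

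Of 13 listed genes that act on Ciita expression, 11 were tested. By limma adjusted p 2 were higher and 1 lower, against 6.26% and 14.1% of all genes tested. The median log2 fold change was -0.15, where that of all genes tested was -0.18. Irf8, a myeloid and lymphoid interferon regulatory factor, was at 67.6, 91.4 and 69.1 FPKM in the controls and 129.5, 122.8 and 123.3 in IGF1 (log2 fold change 0.73, limma adjusted p = 0.0369). Spi1, which encodes PU.1, was at 124.1, 163.0 and 123.9 FPKM against 219.2, 220.5 and 217.5 (log2 fold change 0.69, limma adjusted p = 0.0388). Ifngr1, the ligand-binding chain of the interferon gamma receptor, was called lower at 119.2, 55.0 and 116.9 FPKM against 36.7, 39.5 and 34.8 (log2 fold change -1.29, limma adjusted p = 0.0445).

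Processing and turnover genes were represented by 10 tested genes. Of these 2 were lower and 0 higher by limma adjusted p, against 14.1% and 6.26% of all genes tested. Their median log2 fold change was -0.27, where that of all genes tested was -0.18. Sppl2a, the intramembrane protease that removes the last invariant chain fragment, was at 14.1, 8.76 and 14.0 FPKM in the controls and 6.37, 6.56 and 5.87 in IGF1 (log2 fold change -0.84, limma adjusted p = 0.0435). Cxcr4, a receptor that associates with CD74, was lower with a log2 fold change of -0.69 (limma adjusted p = 0.0429). Ctss, the cathepsin that trims the invariant chain in professional presenting cells, was at 55.6, 99.0 and 60.4 FPKM against 91.9, 96.5 and 89.8, which overlap. Ctsd and Ctsb did not overlap and were lower in IGF1 without passing the test (log2 fold changes -0.51 and -0.48), and Ctsz overlapped at 192.3 to 259.7 FPKM against 215.2 to 222.4.

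**Figure D5:**
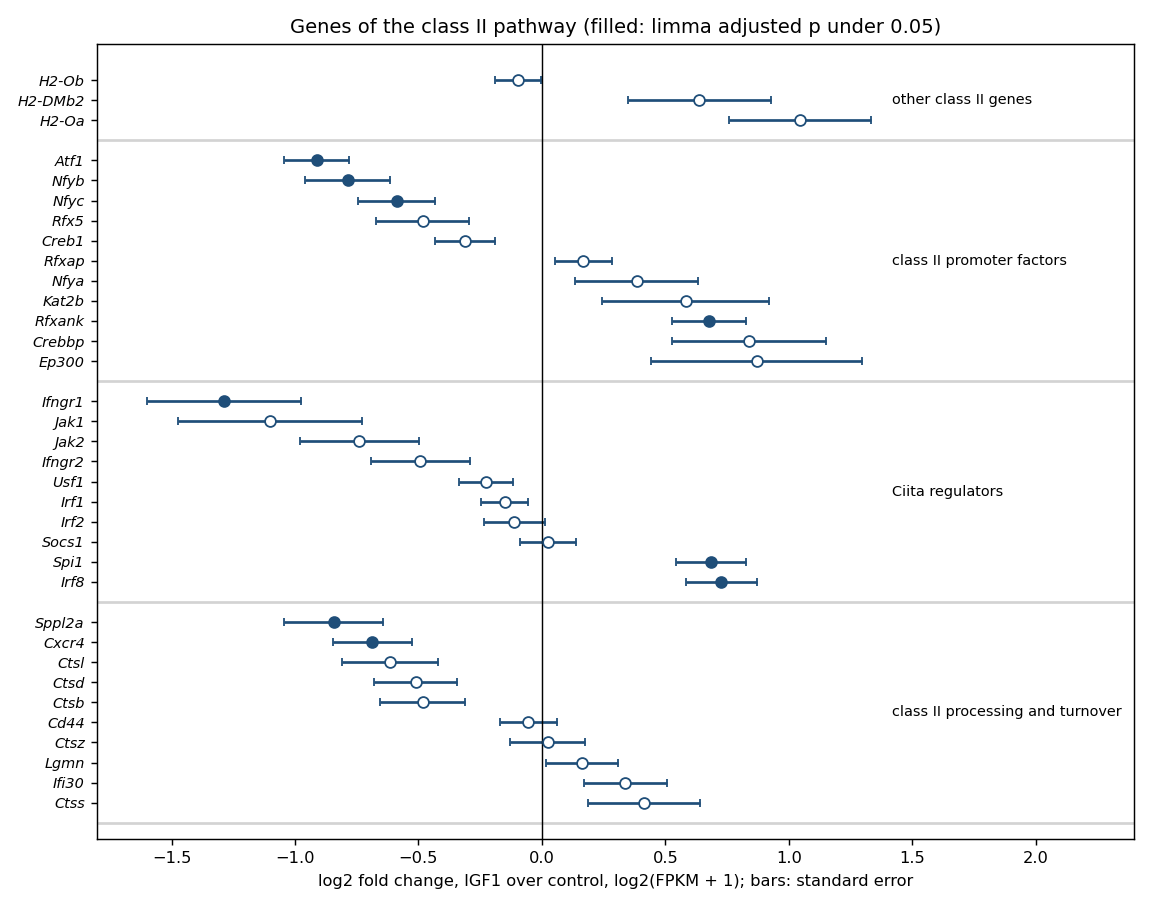
Limma log2 fold changes with standard errors, on log2(FPKM + 1), for the tested genes of the class II pathway that are reported here, grouped as other class II genes, promoter factors, Ciita regulators, and processing and turnover genes. Filled points have an adjusted p under 0.05, which holds for Atf1, Nfyb, Nfyc, Rfxank, Ifngr1, Spi1, Irf8, Sppl2a and Cxcr4, and all 9 kept their direction under 75th percentile scaling and quantile normalization.

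Without control replicate 2 the fold and p rule called 2 promoter factors higher and 1 lower, 0 Ciita regulators higher and 3 lower, and 0 processing and turnover genes higher and 1 lower, of 12, 11 and 10 tested, where 12.3% of all genes were called higher and 20.6% lower. With the replicate block, or without any 1 library other than control replicate 2, 0 genes of the whole table had a limma adjusted p under 0.05, so no pathway gene named here kept it. At an unadjusted p under 0.05 these fits gave 959 to 1707 higher and 2019 to 3084 lower genes. With length and GC trends removed, Nfyb, Nfyc, Sppl2a and Cxcr4 lost it, and the log2 fold change of Atf1 was -0.43.

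MHC class I genes were compared as the closest family, with 13 of 13 tested. By limma adjusted p 1 was lower and 0 were higher, against 14.1% and 6.26% of all genes tested. The median log2 fold change was -0.17 against -0.37 for the class II genes, a difference that was not tested. That of all genes tested was -0.18. Pdia3, a chaperone of class I loading, was called lower (log2 fold change -1.74, limma adjusted p = 0.047). B2m, the class I light chain, was at 6021, 6131 and 5914 FPKM in the controls and 4201, 4338 and 4275 in IGF1, with control replicate 2 the highest library (log2 fold change -0.50, limma adjusted p = 0.202). The log2 fold change of B2m was -1.18 under quantile normalization (limma adjusted p = 0.0267) and -0.22 after 75th percentile scaling (limma adjusted p = 0.674). H2-K1 and H2-D1, the class I heavy chains, overlapped by control replicate 2. H2-K1 was at 994.9, 1334 and 1010 against 1296 to 1336 FPKM, and H2-D1 at 1806, 2460 and 1812 against 2290 to 2336 FPKM. Their log2 fold changes of 0.25 and 0.20 turned to -0.62 and -0.93 under quantile normalization. Without control replicate 2 the fold and p rule called 2 class I genes higher and 3 lower. In that fit 12.3% of all genes were called higher and 20.6% lower.

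Markers of cells that carry much class II were measured beside these genes. In bulk libraries, fewer cells of a type and less RNA per cell cannot be told apart. The summed level of 10 dendritic cell markers was 132.5 to 191.2 FPKM in the controls and 202.4 to 208.7 in IGF1, most of it Flt3. The defining dendritic cell genes Itgax, Zbtb46 and Cd209a were low, Itgax at 0.744 to 1.62 FPKM, Zbtb46 at no more than 0.291 and Cd209a at no more than 0.460 and listed at 0 in the 3 IGF1 libraries. Of the 5 tested, Itgax was higher by limma adjusted p (0.041) and 0 were lower, against 6.26% and 14.1% of all genes tested. For 11 B cell markers the sum was 107.4 to 383.0 FPKM in the controls, highest in control replicate 2, and 391.7 to 413.0 in IGF1. It was mostly Vpreb1, Vpreb3, Cd79a and Cd79b, while Ms4a1 and Pax5 were at most 0.339 and 0.582 FPKM. Of 7 tested, 0 passed the test. The 11 monocyte and macrophage markers summed to 528.6 to 899.6 FPKM in the controls and 800.5 to 814.1 in IGF1, mostly Ly6c2 and Lyz2, with Adgre1 at 0.342 to 1.37 and C1qa at 4.24 to 7.74 FPKM, and 0 of 7 passed the test. Without Ly6c2, a step chosen after its values were seen, the last sum was 501.9, 520.7 and 507.2 FPKM in the controls. In IGF1 it was 460.1, 470.6 and 467.0 on the deposited scale. Most of this was Lyz2, whose log2 fold change was -0.29 as deposited and -0.01 after 75th percentile scaling. Of the 7 tested markers, Ly6c2 included, 4 had fold changes above 0 and 3 below. C1qa was at 7.38, 7.61 and 7.74 FPKM in the controls against 7.16, 4.24 and 4.44 (limma adjusted p = 0.0935). Of 9 neutrophil markers tested, Ngp, Camp, S100a8 and S100a9 were called lower, where 4.63% of all genes tested were. Elane, on the same list, was at 92.8, 576.1 and 92.5 FPKM in the controls against 709.2, 695.5 and 692.1 in IGF1. It was higher in every IGF1 library without passing the test (log2 fold change 2.03, limma adjusted p = 0.0726). Mpo overlapped, at 1613 to 1705 FPKM over all libraries. Of 3 T and NK cell markers 0 passed the test. Of 7 erythroid and megakaryocyte markers 1, Gp1bb, was called higher, where 1.98% of all genes tested were. The part of all these cells in the class II values was not tested.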

How the data were processed

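RNA-seq values of 3 control and 3 IGF1 libraries of sorted BM HSCs were used, grouped by the treatment label. The authors trimmed, aligned and quantified the reads and deposited a single column of values, here taken as FPKM because its unit is not named and a gene's values rise in whole steps (whole within 0.01). The submitters' processing notes name fastp, HISAT2, StringTie and GRCm38 (mm10), and the study's methods name fastp, RSEM and DESeq2, so the quantifier is uncertain. Genes reaching 1 FPKM in 3 or more libraries, 10449 in all, entered a limma fit (version 3.58.1, R 4.3.3, variance trend) of log2(FPKM + 1), a scale that understates changes of low genes. The call needed both a fold above 2 and an adjusted p (Benjamini-Hochberg) below 0.05. Single values were compared by 2-sided exact permutation tests. Scripts were tested on simulated data. Coordinates, exons and lengths came from GENCODE M21 and promoters from RefSeq (GRCm38.p6). Class II genes and gene lists were chosen with earlier results of these data known. Named were all 7 genes, called genes and the 4 most abundant of each pathway list, the nearest profiles and defining markers. Some pathway genes that this rule names are not reported here. Rfxank, Atf1, Sppl2a, Cxcr4 and Brd2 were named after their values were seen. March genes of class II turnover were not used, since the files hold date-like names (27 rows). Alternatives were pseudocounts, filters, 2 scalings, no trend, a replicate block, library weights, leaving out each library, adjusted p alone, and removal of length and GC trends.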

Additional observations from a re-analysis of the deposited data

How the results depend on the processing

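All 6 tested class II genes except H2-Eb1 kept their direction under all 17 alternatives. H2-Eb1 reversed to 0.23 under quantile normalization and to 0.17 under 75th percentile scaling (main -0.09). Relative to the median of all genes it lay above 0 in each, at 0.25, 0.12 and 0.09 in the same order. Log2 fold changes ranged from -1.20 to -0.48 for Cd74, -0.64 to -0.06 for H2-Aa, -0.89 to -0.01 for H2-Ab1, -0.78 to -0.19 for H2-DMb1 and 0.64 to 1.10 for H2-DMa. An adjusted p under 0.05 was lost in 10 alternatives for Cd74, 9 for H2-Aa and 8 for H2-DMb1. The median of the class II genes moved from -0.37 to -0.10 under 75th percentile scaling. One class II gene, H2-DMa, was called higher with library weights and without control replicate 2, and 3 were called lower by adjusted p alone. Leaving out 1 library, class II genes called higher ranged from 0 to 1, all genes called higher from 0 to 1281 and lower from 0 to 2157, the highest values being those without control replicate 2 and 0 those without any other library. Of all genes, 207 were called higher and 484 lower, against 66 and 157 with a pseudocount of 5, 109 and 265 with no filter, 391 and 208 after 75th percentile scaling, 1276 and 2159 with library weights (control replicate 2 at a weight of 0.0137, the others at 1.9 to 3.64) and 654 and 1476 by adjusted p alone. Called lower were 319 under quantile normalization and 153 with length and GC trends removed. With the replicate block, limma called 0 higher and 0 lower (1707 and 3084 at an unadjusted p under 0.05). Whether replicate numbers pair the libraries could not be decided. Deviations of libraries with the same number from their group means correlated at -0.057, -0.05 and 0.006. Control replicate 2 dominates the deviations of all controls, so these correlations could not have shown a pairing. Depth limits Ciita, with 15 to 75 reads per library.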
